A study of Glycine max with 20 samples.

Results

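The 5 genes described here encode enzymes of the isoflavone pathway of soybean: chalcone synthase 7 (CHS7, GLYMA01G43880), chalcone synthase 8 (CHS8, GLYMA11G01350), chalcone isomerase 1A (CHI1A, GLYMA20G38560), isoflavone synthase 1 (IFS1, GLYMA07G32330) and isoflavone synthase 2 (IFS2, GLYMA13G24200). They are the rows with these identifiers among the 57274 gene models in the deposited tables, and all 5 passed the filter on low counts that left 40721 models to test. The samples were whole seeds (cotyledon and seed coat together, pooled by age) of 2 near-isogenic lines grown in the field. DN47 is the recurrent parent and carries all subunits of the storage protein β-conglycinin, and cgy-2-NIL is DN47 with a donor segment of chromosome 20 that holds the cgy-2 allele and leaves the seed without the α-subunit. Seeds were taken on days 18, 25, 35, 50 and 55 after flowering (written DAF), and 2 biological replicates of each line at each of these 5 stages gave 20 libraries in 10 groups. A difference between the lines is a difference between a single introgressed family and its parent, and it cannot be told apart from the effect of any other gene on the donor segment. By its identifier CHI1A lies on chromosome 20, the chromosome of the donor segment, and the other genes lie on chromosomes 1, 11, 7 and 13. The reference table gives the names IFS1 and IFS2 each as a synonym of the other, so the identifiers and not the names fix which gene is meant. Whole seeds were measured, and fewer cells of a type and less RNA per cell cannot be told apart.

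Isoflavones are phenylpropanoids that legumes accumulate in the seed and use as signals to rhizobia and as precursors of defence compounds. Chalcone synthase condenses coumaroyl-CoA with malonyl-CoA into a chalcone, chalcone isomerase closes the ring to give a flavanone, and isoflavone synthase, a cytochrome P450, moves the aryl ring of the flavanone and so commits it to the isoflavone branch. In soybean the chalcone synthases form a multigene family, in which CHS7 and CHS8 are known for their part in seed isoflavone synthesis, and IFS1 and IFS2 are near-identical copies.

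Levels are given as RPKM, reads scaled to the length of the gene model and to the reads counted in the library, and each pair of values lists replicates 1 and 2. Differences are log2 fold changes fitted on the read counts after trimmed-mean (TMM) scaling, with the standard error (SE) and a p-value adjusted over all 40721 models, and a gene was called where this p was under 0.05. The libraries held 18492047 to 30555808 counted reads, and the 5 genes drew 58 to 15072 reads each per library. TMM factors ran from 0.613 to 1.58, so that RPKM and scaled counts can differ in a change between stages: from 25 to 35 DAF in DN47 the median gene moved by 0.02 on the scaled counts and by -0.40 on log2(RPKM + 1). No pair of replicates held identical values. Their counts differed by more than sampling noise in every group, with a chi-square per degree of freedom of 3.04 to 44.0. It was highest in cgy-2-NIL at 50 DAF, and next highest, at 18.4, in cgy-2-NIL at 35 DAF. The α-subunit genes GLYMA20G28660 and GLYMA20G28650 matched the labels from 25 DAF on, DN47 standing above cgy-2-NIL at each stage, with a summed RPKM of 8.82 to 193 in DN47 and 0.0155 to 7.05 in cgy-2-NIL. Reads of CHS7 and CHS8, and of IFS1 and IFS2, can be shared between near-identical copies, so the split within each pair is uncertain.

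All 5 genes had their highest group mean at 55 DAF in both lines, and the synthases at the head of the pathway and those at its branch point took different courses to it. CHS7 and CHS8 had their lowest level at 35 DAF and rose from there, whereas IFS1 and IFS2 had their lowest level at 18 DAF and a higher mean RPKM at each later stage. Late in development the lines parted. Set against DN47, cgy-2-NIL had less CHS7 and CHI1A at 50 DAF, and at 55 DAF it had less CHS7, CHS8 and CHI1A and more IFS1. The range between the lowest and the highest group mean was widest in IFS2 (178-fold) and narrowest in CHI1A (7.01-fold), with 16.3-fold in CHS7, 29.8-fold in CHS8 and 17.9-fold in IFS1.

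**Figure D1:**
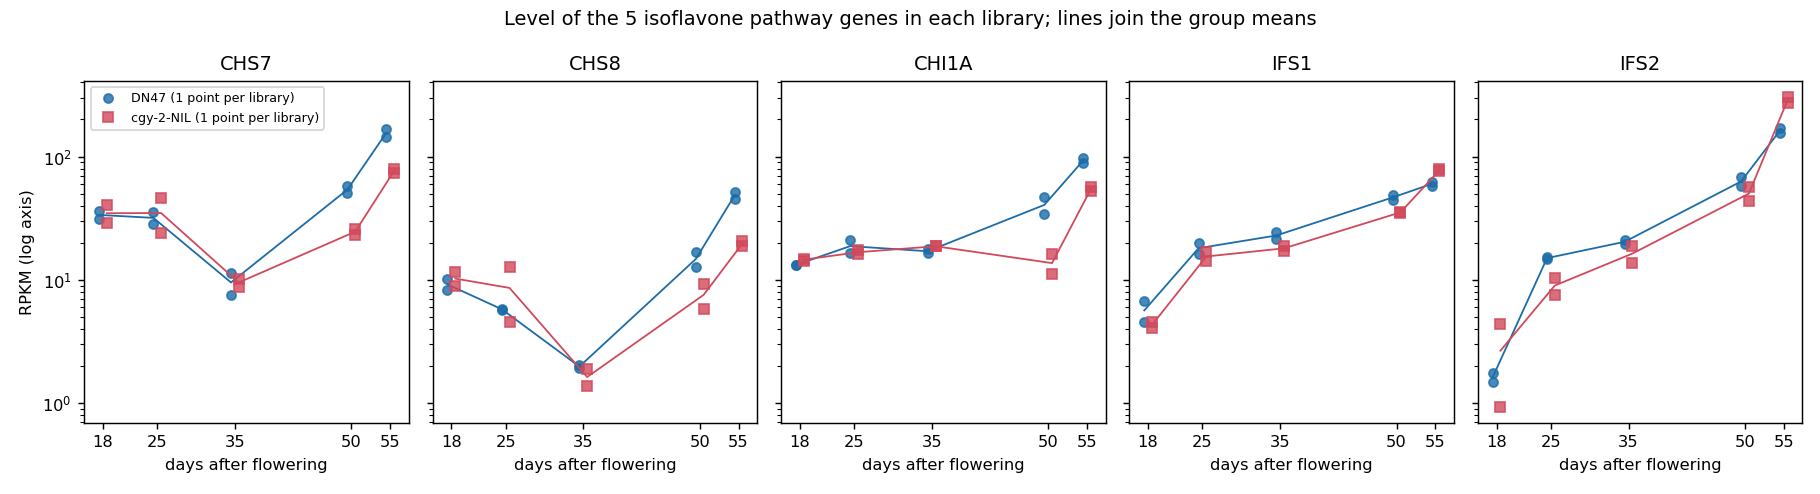
RPKM on a log axis against days after flowering, with 1 panel per gene, 1 point per library (DN47 circles, cgy-2-NIL squares, drawn side by side) and lines through the group means of 2 libraries. CHS7 and CHS8 dip at 35 DAF, IFS1 and IFS2 climb from 18 DAF, and at 55 DAF the cgy-2-NIL points lie below those of DN47 for CHS7, CHS8 and CHI1A and above them for IFS1 and IFS2.

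CHS7 was the most abundant chalcone synthase of the pair in every library. In DN47 its pairs of RPKM, from the youngest to the oldest seeds, were 31.1 and 36.1, 28.3 and 35.3, 7.60 and 11.5, 50.2 and 57.8 and finally 143 and 168. In cgy-2-NIL it measured 40.3 and 29.1, 45.8 and 23.8, 10.2 and 8.83, 23.2 and 26.0, and 73.6 and 79.1 at the same ages. The libraries of the lines overlapped at 18, 25 and 35 DAF, and at 50 and 55 DAF both cgy-2-NIL libraries lay below both of DN47. At 50 DAF CHS7 was 2.30-fold lower in cgy-2-NIL (log2 fold change -1.20, SE 0.247, adjusted p = 0.00499), and at 55 DAF it was 1.81-fold lower (log2 fold change -0.86, SE 0.240, adjusted p = 0.00891). The call at 50 DAF was narrowly lost in 2 of the alternative fits, with adjusted p = 0.0523 without cgy-2-NIL replicate 2 of 50 DAF and 0.0535 in a fit of the 4 libraries of that stage. At 55 DAF the p rose to 0.0700 without cgy-2-NIL replicate 1 and to 0.0667 without DN47 replicate 2 of that stage. The direction held in each of these fits.

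Between stages CHS7 did not pass the test from 18 to 25 DAF in either line, with log2 fold changes of 0.11 in DN47 and 0.15 in cgy-2-NIL. From 25 to 35 DAF it fell by 1.07 on the log2 scale in DN47 (adjusted p = 0.00493) and fell by 1.29 in cgy-2-NIL (adjusted p = 0.00099). The fall in DN47 did not pass without DN47 replicate 1 of 35 DAF (adjusted p = 0.0664). It then rose 7.30-fold to 50 DAF in DN47 (log2 fold change 2.87, adjusted p = 1.6e-06) and 3.54-fold in cgy-2-NIL (1.82, adjusted p = 3.5e-05). A further rise to 55 DAF measured 2.41-fold in DN47 (log2 fold change 1.27) and 3.06-fold in cgy-2-NIL (1.62). In the order of its group means the 4 groups of 18 and 25 DAF, from 31.8 to 34.8 RPKM, overlapped one with the next, as did the lines at 35 DAF.

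CHS8 followed CHS7 at a lower level. Its 5 pairs of RPKM in DN47, by age, were 8.26 and 10.1, 5.71 and 5.85, 1.93 and 2.03, 12.6 and 16.9 and finally 45.3 and 51.8. In cgy-2-NIL it measured 11.6 and 8.87, 12.6 and 4.60, 1.90 and 1.37, 5.80 and 9.32, and 19.0 and 20.5. Its cgy-2-NIL replicates of 25 DAF stood far apart, the same library being the higher one for CHS7. At 35, 50 and 55 DAF both cgy-2-NIL libraries lay below both of DN47, and at 18 and 25 DAF the lines overlapped. At 55 DAF CHS8 was 2.18-fold lower in cgy-2-NIL (log2 fold change -1.13, SE 0.325, adjusted p = 0.0118). This call was lost without any of 3 libraries of that stage, with adjusted p = 0.0797 without cgy-2-NIL replicate 1, 0.05002 without cgy-2-NIL replicate 2 and 0.0628 without DN47 replicate 2. At 50 DAF the difference was -1.03 (SE 0.343) with adjusted p = 0.0594, and it passed when either cgy-2-NIL library of 25 DAF was left out (adjusted p = 0.00224 and 0.00223). Without cgy-2-NIL replicate 2 of 25 DAF the difference at 25 DAF was 1.06 with adjusted p = 0.0338, and without replicate 1 it was -0.42 with adjusted p = 0.339, so the pair sets the sign of the line difference at that stage.

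CHS8 rose from 35 to 50 DAF 9.50-fold in DN47 (log2 fold change 3.25, SE 0.398) and 6.40-fold in cgy-2-NIL (2.68, SE 0.405), the steepest rise of any of the 5 genes over that interval in each line. From 50 to 55 DAF it rose 2.75-fold in DN47 and 2.57-fold in cgy-2-NIL, the latter with adjusted p = 0.0555 without cgy-2-NIL replicate 1 of 50 DAF. Before that, from 25 to 35 DAF, it fell by 1.82 on the log2 scale in cgy-2-NIL (adjusted p = 0.00287). This fall had adjusted p = 0.0758 in a fit of those 4 libraries alone, and leaving out replicate 2 or replicate 1 of 25 DAF gave -2.39 and -0.91. In DN47 the change over this interval was -0.88 with adjusted p = 0.119. It passed by DESeq2 (adjusted p = 0.0282), on log2(RPKM + 1) and log2(RPKM + 0.1), where it was -1.19 and -1.50 (0.00393 and 0.00199), in a fit of those 4 libraries (6.8e-04), and without either cgy-2-NIL library of 25 DAF (0.00602 and 0.00601). Ordered by mean RPKM, the groups of 18 and 25 DAF and cgy-2-NIL at 50 DAF, from 5.78 to 10.2, overlapped one with the next, and DN47 at 50 DAF, cgy-2-NIL at 55 DAF and DN47 at 55 DAF stood apart above them.

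CHI1A, a type II chalcone isomerase, which acts on the deoxychalcones of legumes as well as on naringenin chalcone, stayed between 13.2 and 20.9 RPKM up to 35 DAF in both lines. Over the stages of DN47 its pairs of RPKM were 13.2 and 13.2, 16.6 and 20.9, 16.4 and 17.8, 33.9 and 47.2 and finally 88.8 and 96.5. In cgy-2-NIL it measured 14.3 and 14.9, 16.2 and 17.3, 18.7 and 18.8, 11.1 and 16.2, and 56.2 and 52.8. At 50 DAF the cgy-2-NIL libraries lay on either side of those of 18 DAF, and at 50 and 55 DAF both lay below both of DN47. At 18 and 35 DAF both lay above them in RPKM. The fitted log2 fold changes of CHI1A there were 0.12 (adjusted p = 0.886) and -0.02 (adjusted p = 0.952), and neither was called. At 50 DAF it was 3.09-fold lower in cgy-2-NIL (log2 fold change -1.63, SE 0.142, 95% interval -1.93 to -1.33, adjusted p = 1.3e-05), the strongest line difference among the 5 genes at that stage by size and by p. At 55 DAF it was 1.51-fold lower (log2 fold change -0.60, SE 0.133, adjusted p = 0.00149). Both calls held in each of the 20 fits that left out 1 library, with log2 fold changes of -1.90 to -1.40 at 50 DAF and -0.67 to -0.53 at 55 DAF. At 50 DAF the adjusted p was 0.0565 in a fit of the 4 libraries of that stage, with a log2 fold change of -1.64.

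From 35 to 50 DAF CHI1A rose 3.02-fold in DN47 (log2 fold change 1.60, adjusted p = 4.0e-07), and the fitted change in cgy-2-NIL was -0.01 (95% interval -0.31 to 0.29, adjusted p = 0.984). On RPKM the change in cgy-2-NIL over this interval was a fall, of -0.45 on log2(RPKM + 1) with adjusted p = 0.0299 by limma. From 50 to 55 DAF the order turned, with a rise of 3.92-fold in cgy-2-NIL (log2 fold change 1.97, adjusted p = 5.0e-09) and of 1.92-fold in DN47 (0.94, adjusted p = 3.0e-05). From 18 to 25 DAF CHI1A rose by 0.70 on the log2 scale in DN47 (adjusted p = 0.00122), and the change in cgy-2-NIL was 0.34 (adjusted p = 0.0642). Its direction in DN47 from 25 to 35 DAF hung on the scaling. It rose by 0.53 after TMM scaling (adjusted p = 0.00819; 0.0907 without DN47 replicate 1 of 25 DAF), and on log2(RPKM + 1) the change was -0.12 (adjusted p = 0.535). The rise in cgy-2-NIL, 0.75 after TMM scaling, was 0.15 on log2(RPKM + 1) and did not pass there (adjusted p = 0.439). In the order of the group means, DN47 at 18 DAF, cgy-2-NIL at 50 DAF and cgy-2-NIL at 18 DAF overlapped at the low end, from 13.2 to 14.6 RPKM, and the top 3 groups, 40.5, 54.5 and 92.6, stood apart.

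After TMM scaling IFS1 rose over the first 3 intervals in both lines, and over the last in cgy-2-NIL. DN47 gave RPKM pairs of 4.55 and 6.75, 19.8 and 16.3, 21.3 and 24.5, 44.4 and 48.9 and finally 57.9 and 62.0 over the 5 stages. In cgy-2-NIL it measured 4.57 and 4.06, 16.7 and 14.2, 17.3 and 18.7, 35.4 and 35.2, and 75.7 and 78.8. Both cgy-2-NIL libraries lay below both DN47 libraries at 35 and 50 DAF, and above them at 55 DAF. At 55 DAF IFS1 was 1.45-fold higher in cgy-2-NIL (log2 fold change 0.54, SE 0.163, adjusted p = 0.0124). The p was 0.0717 without cgy-2-NIL replicate 2 and 0.0980 without DN47 replicate 1 of that stage, and 0.0583 by limma on log2(RPKM + 1), where the difference was 0.36. At 35 and 50 DAF the difference was of the other sign and just short of the threshold, with log2 fold changes of -0.50 (SE 0.167, adjusted p = 0.0563) and -0.47 (SE 0.164, adjusted p = 0.0594). Of the 14 alternatives other than leaving out 1 library, 3 passed at 35 DAF and 5 at 50 DAF. Over the 20 fits that left out 1 library the differences were -0.68 to -0.32 and -0.51 to -0.43. At 18 and 25 DAF it was -0.41 and -0.31 (adjusted p = 0.429 and 0.286).

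The rise of IFS1 from 18 to 25 DAF was 3.68-fold in DN47 (log2 fold change 1.88, adjusted p = 7.7e-07) and 3.95-fold in cgy-2-NIL (1.98, adjusted p = 4.2e-07). It rose again from 25 to 35 DAF, by 1.00 on the log2 scale in DN47 and by 0.82 in cgy-2-NIL after TMM scaling. On log2(RPKM + 1) these rises were 0.33 and 0.21, with adjusted p = 0.0597 and 0.227. The rise from 35 to 50 DAF was 2.62-fold in DN47 and 2.66-fold in cgy-2-NIL. The last interval differed, with a rise of 2.16-fold in cgy-2-NIL (log2 fold change 1.11, adjusted p = 1.8e-05) and a change of 0.10 in DN47 (95% interval -0.25 to 0.45, adjusted p = 0.663). In RPKM both DN47 libraries of 55 DAF lay above both of 50 DAF. Over the 13 alternatives other than leaving out 1 library the change in DN47 was -0.0023 to 0.36. None of these passed, with adjusted p of 0.0550 or more. Of neighbours in the order of its group means, the lines overlapped at 18 DAF, as did cgy-2-NIL at 35 DAF (18.0 RPKM) and DN47 at 25 DAF (18.1), and the other 7 pairs stood apart.

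IFS2 had the widest range of the 5 genes, from the lowest level at 18 DAF to the highest at 55 DAF. By age, DN47 gave RPKM pairs of 1.76 and 1.48, 15.3 and 14.7, 19.6 and 21.2, 57.7 and 68.0 and finally 155 and 170. In cgy-2-NIL it measured 0.928 and 4.41, 10.4 and 7.55, 13.8 and 18.9, 43.7 and 56.5, and 306 and 271. Its cgy-2-NIL replicates of 18 DAF, with 60 and 284 reads, lay on either side of both DN47 libraries. From 25 to 50 DAF both cgy-2-NIL libraries lay below both of DN47, and at 55 DAF both lay above. By mean RPKM over all gene models IFS2 ranked 327 in DN47 and 264 in cgy-2-NIL at 55 DAF, against 29150 and 26066 at 18 DAF.

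At 55 DAF the log2 fold change of IFS2 was 1.00 toward cgy-2-NIL (SE 0.412, 95% interval 0.10 to 1.89) and did not pass (adjusted p = 0.0650). The call depended on the fit. With all libraries kept, the adjusted p was 0.0473 with DESeq2 size factors, 0.00581 by limma-voom and 0.0409 with a minimum of 10 counts in every library. It was 6.4e-04 without cgy-2-NIL replicate 1 of 18 DAF and 6.4e-04 without replicate 2, and 0.00129 in a fit of the 4 libraries of 55 DAF. The size of the difference was 0.97 to 1.08 over these 6 fits. No other fit that left out 1 library passed, and the difference was 0.92 to 1.07 over all 20 of them. Of the 13 other alternatives 4 passed, with adjusted p up to 0.140 and log2 fold changes of 0.82 to 1.08. At 25 DAF the difference was -0.82 (adjusted p = 0.279). Of the fits that left out 1 library, only those without either of the same 18 DAF libraries passed. The difference was -1.09 to -0.59 over all 20 of these fits. It passed in 1 of the 14 other alternatives, a fit of the 4 libraries of that stage (adjusted p = 0.0282). At 18 DAF, without replicate 1, it was 1.41 (adjusted p = 0.0377), and without replicate 2 it was -0.83 (adjusted p = 0.666). At 35 and 50 DAF it was -0.46 and -0.40 (adjusted p = 0.521 and 0.566).

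Over development IFS2 rose 10.6-fold from 18 to 25 DAF in DN47 (log2 fold change 3.41, SE 0.495) and 3.72-fold in cgy-2-NIL (1.89, SE 0.459), where leaving out replicate 1 or 2 of 18 DAF gave 1.17 and 3.41. In a fit of those 4 libraries alone the rise in cgy-2-NIL did not pass (1.91, adjusted p = 0.129). Its rise from 35 to 50 DAF was 3.95-fold in DN47 and 4.12-fold in cgy-2-NIL. From 50 to 55 DAF it rose 5.68-fold in cgy-2-NIL (log2 fold change 2.51, adjusted p = 2.2e-04) and 2.16-fold in DN47 (1.11, adjusted p = 0.0424). The rise in DN47 passed in 4 of the 20 fits that left out 1 library, with adjusted p of 2.7e-04 to 0.144 over them. From 25 to 35 DAF the change was 1.47 in cgy-2-NIL (adjusted p = 0.0160), which did not pass without cgy-2-NIL replicate 2 of 25 DAF (0.128) or of 35 DAF (0.130), and 1.11 in DN47 (adjusted p = 0.0643). In the order of group means the lines overlapped at 18 DAF, DN47 at 25 DAF (15.0 RPKM) overlapped cgy-2-NIL at 35 DAF (16.4), and the other 7 neighbouring pairs stood apart.

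Counted over the 5 genes, none was called between the lines at the first 3 stages, where in order 1.19%, 8.07% and 14.7% of all genes tested were called by edgeR. At an unadjusted p under 0.05 there were 1, 0 and 1 of the 5, and DESeq2 and limma-voom each called 0, 0 and 1 (IFS1). At 50 DAF 2 of 5 were called, both lower in cgy-2-NIL, against 16.4% of all genes (7.9% lower). At 55 DAF 4 of 5 were called, 3 lower and 1 higher, against 46.1% of all genes (24.4% lower and 21.8% higher). The median log2 fold change of the 5 was 0.12, -0.24, -0.46, -1.03 and -0.60 from 18 to 55 DAF, and the median over all genes tested stayed between -0.02 and 0.02. With 1 line effect fitted across the stages none of the 5 was called by edgeR (13.5% of all genes), 2 were under an unadjusted p of 0.05, and the values ran from -0.47 in CHI1A (adjusted p = 0.0631) and -0.43 in CHS7 (0.0813) to -0.02 in IFS2 (0.977). CHI1A was the 1 gene that passed here by limma-voom (adjusted p = 0.0457) and by DESeq2 (0.0442). CHS7 passed without cgy-2-NIL replicate 1 of 18 DAF (adjusted p = 0.0463), and CHS7 and CHS8 passed without cgy-2-NIL replicate 1 of 25 DAF (0.0223 and 0.0185). IFS1 passed without the libraries of 55 DAF (log2 fold change -0.42, adjusted p = 0.0116). The fit across stages takes the line difference to be equal at all of them. The interaction test given below called 4 of the 5 genes for a difference that changed with stage. A call missing across stages is therefore not a difference missing at single stages.

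**Figure D2:**
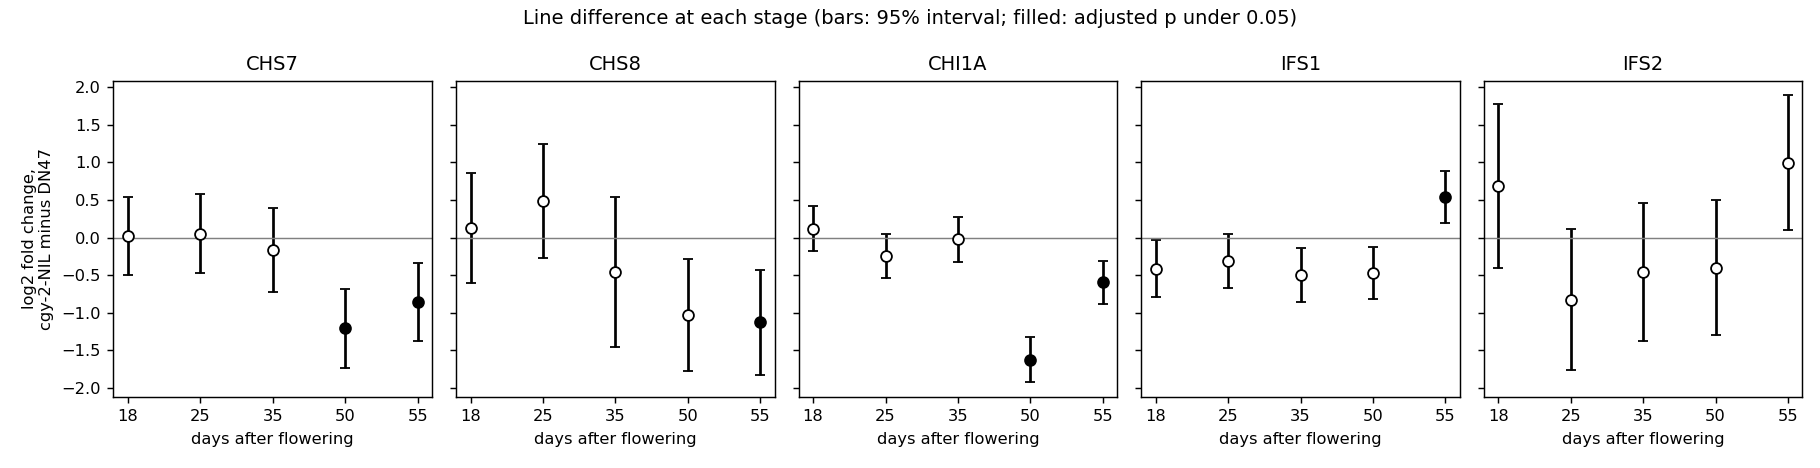
Log2 fold change of cgy-2-NIL minus DN47 at each stage, with 1 panel per gene; bars are 95% intervals from the fit on 20 libraries, and filled points have an adjusted p under 0.05. CHS7 and CHI1A are filled and below 0 at 50 and 55 DAF, CHS8 is filled and below 0 at 55 DAF, and IFS1 is filled and above 0 at 55 DAF with IFS2 above 0 but open.

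Other features of the seed also differed between the lines, at stages that were not the same for each. The summed RPKM of 8 storage protein genes (glycinins and the α′ and β subunits of β-conglycinin) was 41356 to 46625 in DN47 and 5352 to 6462 in cgy-2-NIL at 55 DAF, with 8 of 8 called lower there by edgeR and 0 of 8 called at 50 DAF (0 also at an unadjusted p under 0.05), where 24.4% of all genes were lower and 16.4% called. At 25 DAF their sum was 12864 to 26248 in DN47 and 2921 to 8991 in cgy-2-NIL, with 5 of 8 lower (8.07% of all genes called). The summed RPKM of 4 genes listed for the seed coat was higher in both cgy-2-NIL libraries than in both of DN47 early on. It was 8094 to 8176 against 6570 to 6730 at 18 DAF, and 1633 to 1663 against 1060 to 1345 at 25 DAF. Most of this early sum was GLYMA07G28940, which edgeR did not call at either stage (adjusted p = 0.895 and 0.525). GLYMA09G02600, a haem peroxidase, was called lower in cgy-2-NIL by edgeR at 25 DAF (log2 fold change -1.08, adjusted p = 0.0123). The same held at 35, 50 and 55 DAF (-0.93, -2.88 and -3.14, adjusted p = 0.0125, 1.2e-05 and 6.6e-08). At the late stages the sum was lower in both cgy-2-NIL libraries. It was 21.4 to 27.8 in DN47 and 3.11 to 5.08 in cgy-2-NIL at 50 DAF, and 33.7 to 38.0 and 2.71 to 4.59 at 55 DAF. Nearly all of the late sum was GLYMA09G02600. The anthocyanidin reductase genes GLYMA08G06630 and GLYMA08G06640 were at 0 to 0.137 RPKM in both lines at those stages. At 35 DAF GLYMA08G06630 drew 554 and 25 reads in cgy-2-NIL and 4 and 8 in DN47 (log2 fold change 5.21, adjusted p = 0.0275). It was higher in cgy-2-NIL there while GLYMA09G02600 was lower, and GLYMA07G28940 was not called by edgeR (-0.16, adjusted p = 0.818). The part of the storage and seed coat genes in the differences of the 5 genes was not tested.

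Between neighbouring stages in DN47, 3 of the 5 genes were called from 18 to 25 DAF, all rising, against 33.4% of all genes (16.3% rising). From 25 to 35 DAF 3 were called, with IFS1 and CHI1A rising and CHS7 falling, against 33.4% (17% rising and 16.4% falling). All 5 rose from 35 to 50 DAF, against 37.5% called (16.2% rising), and 4 rose in the last interval, against 47.5% (22.7% rising). In cgy-2-NIL both isoflavone synthases, 2 of 5, rose from 18 to 25 DAF, against 39.2% called (20.2% rising). From 25 to 35 DAF all 5 were called, with CHI1A and the isoflavone synthases rising and the chalcone synthases falling, against 41.4% (20.2% rising and 21.3% falling). From 35 to 50 DAF 4 rose, against 54.7% (25.8% rising), and all 5 rose in the last interval, against 62.2% (28.4% rising). The calls of CHI1A and IFS1 from 25 to 35 DAF did not hold on log2(RPKM + 1) in either line, and the change of CHI1A in DN47 was of the other sign there. Comparisons of neighbouring stages share the libraries of the stage between them.

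**Figure D3:**
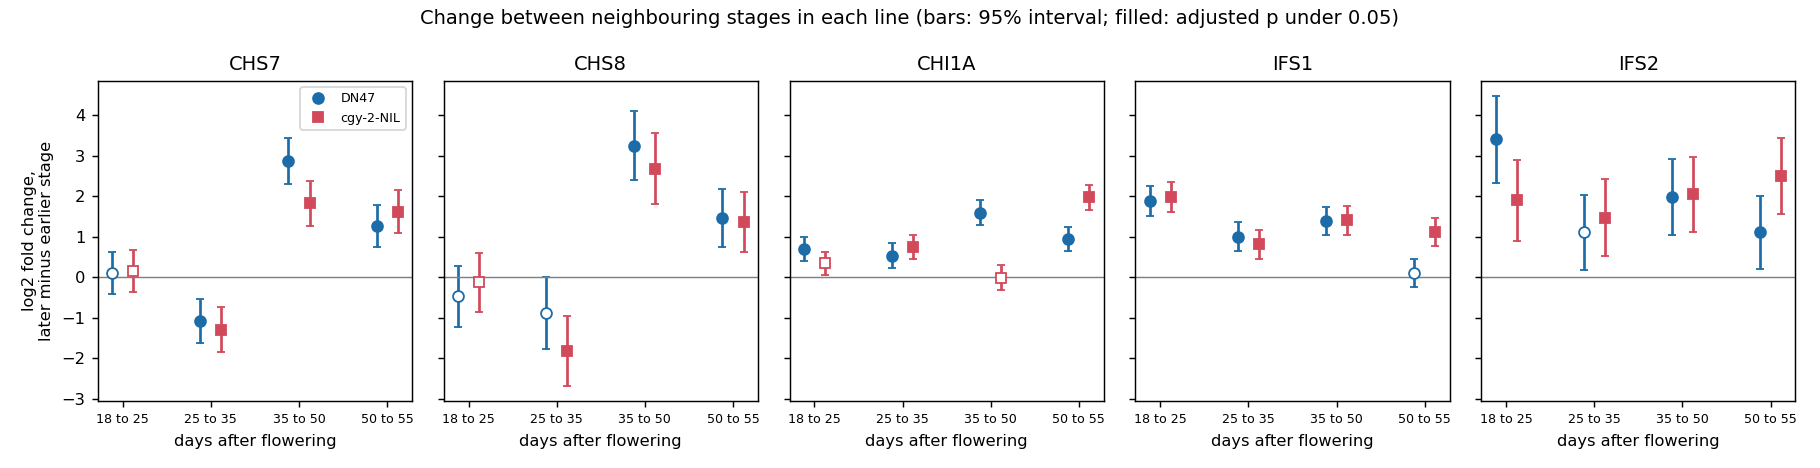
Log2 fold change between neighbouring stages (later minus earlier, TMM-scaled counts) in DN47 (circles) and cgy-2-NIL (squares), with 1 panel per gene; bars are 95% intervals and filled points have an adjusted p under 0.05. From 35 to 50 DAF CHI1A rises by 1.60 in DN47 and stands at -0.01 in cgy-2-NIL, and from 50 to 55 DAF IFS1 stands at 0.10 in DN47 and rises by 1.11 in cgy-2-NIL.

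Whether the line difference changed with stage was tested with the 4 interaction terms of line and stage together. It changed in 4 of the 5 genes, against 44.5% of all genes tested: CHI1A (adjusted p = 3.7e-05), IFS1 (0.00708), CHS7 (0.0210) and CHS8 (0.0462), and IFS2 did not pass (0.0851). The call of CHS8 held in 3 of the 20 fits that left out 1 library, and that of CHS7 in 17, where the adjusted p without cgy-2-NIL replicate 1 or 2 or DN47 replicate 1 of 50 DAF was 0.0735, 0.0599 and 0.0502. The call of IFS1 was lost without DN47 replicate 1 of 55 DAF (0.0592), and CHI1A passed in all 20. IFS2 passed without either cgy-2-NIL library of 18 DAF (adjusted p = 1.7e-04 and 8.6e-04). Without the libraries of 55 DAF CHI1A alone of the 5 was called, and IFS1 had adjusted p = 0.914.

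Neighbouring stages were then tested singly, a choice made after the values were seen. From 35 to 50 DAF the line difference of CHI1A moved by -1.60 (SE 0.199, adjusted p = 6.2e-04), the 1 of 5 called (8.26% of all genes). From 50 to 55 DAF it moved back by 1.03 (SE 0.193, adjusted p = 0.00100), and that of IFS1 moved by 1.01 (SE 0.232, adjusted p = 0.00422), 2 of 5 called (25.6%). For IFS2 the shift over this last interval was 1.40 (SE 0.582, adjusted p = 0.101), and for CHS7 and CHS8 it was 0.35 (95% interval -0.38 to 1.08) and -0.10 (-1.12 to 0.92). The shift of CHS7 from 35 to 50 DAF was -1.04 (SE 0.358, adjusted p = 0.0868). By edgeR none of the 5 was called from 18 to 25 DAF (3.58%; IFS2 at an unadjusted p of 0.0406 was the 1 under 0.05) or in the next interval (1.39%; 0 under an unadjusted 0.05). No other tool was run on these single shifts.

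The balance of the branch point against the first step, taken as the ratio of RPKM within a library, is free of library scaling. IFS2 over CHS7 was 0.0230 to 0.151 over both lines at 18 DAF, and 0.417 to 0.540 in DN47 and 0.228 to 0.317 in cgy-2-NIL at 25 DAF. At 35 DAF it was 1.85 to 2.57 and 1.35 to 2.14, the lines overlapping. It then parted, at 1.15 and 1.18 in DN47 and 1.89 and 2.17 in cgy-2-NIL at 50 DAF, and at 1.08 and 1.01 in DN47 and 4.16 and 3.42 in cgy-2-NIL at 55 DAF. IFS1 over CHS7 was 0.404 and 0.369 in DN47 at 55 DAF and 1.03 and 0.996 in cgy-2-NIL. Over the last 2 stages the ratios were thus higher in both cgy-2-NIL libraries than in both of DN47. No test was run on the ratios.

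Within the pairs, CHS7 stood above CHS8 in all 20 libraries, by 2.79 to 6.46 times in RPKM. IFS2 over IFS1 moved with age. It was 0.387 and 0.219 in DN47 and 0.203 and 1.09 in cgy-2-NIL at 18 DAF, 0.530 to 0.904 over both lines at 25 DAF, 0.798 to 1.01 at 35 DAF, 1.24 to 1.61 at 50 DAF, and 2.68 and 2.74 in DN47 and 4.05 and 3.44 in cgy-2-NIL at 55 DAF. IFS1 was thus the more abundant isoflavone synthase transcript in all 4 libraries of 25 DAF and IFS2 in all 8 of 50 and 55 DAF.

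**Figure D4:**
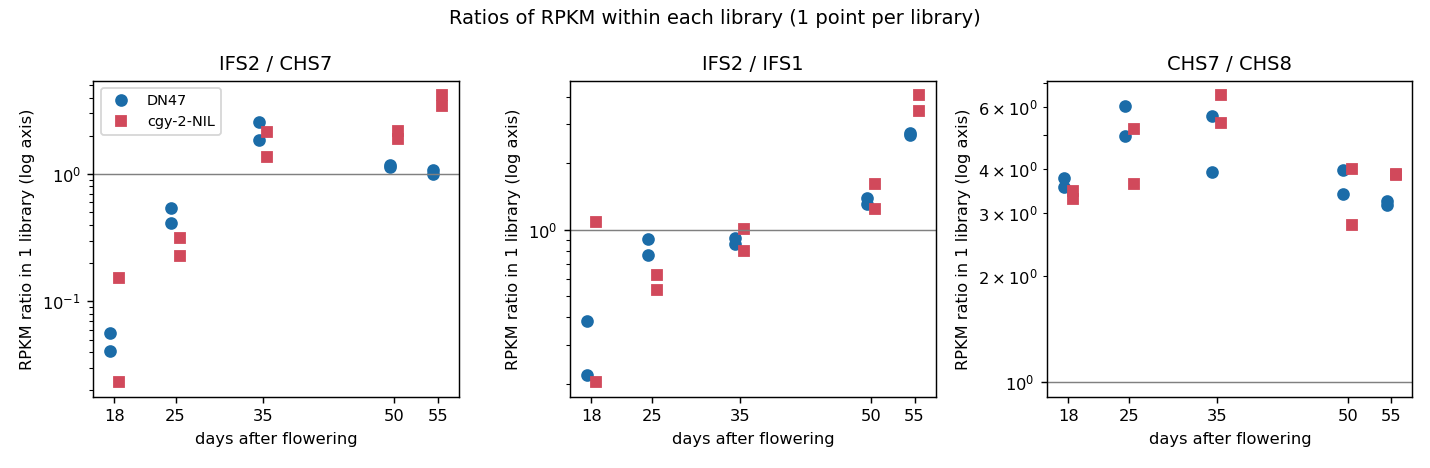
Ratio of RPKM between genes within each library on a log axis, against days after flowering, with 1 point per library (DN47 circles, cgy-2-NIL squares) and a grey line at a ratio of 1. IFS2 over CHS7 parts by line at 50 and 55 DAF, IFS2 over IFS1 crosses 1 after 35 DAF apart from 1 cgy-2-NIL library at 18 DAF and 1 at 35 DAF, and CHS7 over CHS8 stays between 2.79 and 6.46.

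Over the 10 group means of log2(RPKM + 1), in which each pair of genes shares its libraries, the genes fell into their pairs, with a Pearson correlation of 0.988 between CHS7 and CHS8 and of 0.984 between IFS1 and IFS2. Between a chalcone synthase and an isoflavone synthase it was 0.411 to 0.495, and CHI1A stood between, at 0.749 and 0.770 with the chalcone synthases and 0.764 and 0.811 with the isoflavone synthases. Reads can be shared between the copies of a pair, and their part in the correlation within it was not tested. Among 30951 models with a mean RPKM of at least 1, CHS8 was the one most like CHS7 and CHS7 the one most like CHS8. Next came GLYMA17G35190 (0.948) and GLYMA01G35320 (0.944) for CHS7, and GLYMA01G35320 (0.966) and GLYMA11G37881 (0.954) for CHS8. The models most like CHI1A were GLYMA06G46361 (0.955), GLYMA11G15160 (0.952) and Novel00020 (0.947), and those most like IFS1 were GLYMA03G00750 (0.990), GLYMA17G14680 (0.988) and GLYMA19G32920 (0.986). For IFS2 they were GLYMA11G06640 (0.994), GLYMA09G09930 (0.994) and GLYMA17G16620 (0.990).

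Beside the 5 genes, a list of 31 further identifiers was followed without gene names, which neither the deposited tables nor the reference table pair with these identifiers. The list was drawn up to take in flavanone 3-hydroxylase, outside the isoflavone branch, as well as steps of the pathway. A listed gene, the most abundant included, therefore need not act in the isoflavone branch. Of the 31, 22 passed the filter on low counts. Between the lines edgeR called 0, 1, 2 and 2 of the 22 at the first 4 stages in order, all lower in cgy-2-NIL, and 11 at 55 DAF, 10 lower and 1 higher. Over all genes tested 1.19%, 8.07%, 14.7%, 16.4% and 46.1% were called at these stages in either direction. The share called lower was 7.9% at 50 DAF and 24.4% at 55 DAF, where 21.8% were called higher. At 18 DAF 2 of the 22 had an unadjusted p under 0.05, and no other tool was run on the list. The list's median log2 fold change was 0.22, -0.07, 0.03, -0.09 and -1.31 at these stages, against -0.02 to 0.02 over all genes tested. At 55 DAF the 1 that was higher was GLYMA01G45020, with 39.2 and 45.2 RPKM in DN47 and 54.7 and 48.5 in cgy-2-NIL (log2 fold change 0.46, adjusted p = 0.00735). GLYMA20G38570, whose identifier follows that of CHI1A, had the lowest fitted log2 fold change of those called, a value set against a group with no reads and no measure of its size. It drew 11 and 13 reads in DN47 and 0 and 0 in cgy-2-NIL, which makes it at least 4.05-fold lower against a floor of 3 reads per library (adjusted p = 0.00279). At 50 DAF it drew 49 and 98 reads in DN47 and 17 and 2 in cgy-2-NIL (adjusted p = 4.4e-04). GLYMA18G52250, named after its values were seen, was lower in cgy-2-NIL at 25, 50 and 55 DAF. It measured 49.8 and 63.8 RPKM in DN47 and 13.3 and 7.48 in cgy-2-NIL at 50 DAF, and 40.5 and 41.0 against 4.14 and 2.79 at 55 DAF (log2 fold changes -2.52 and -3.39). GLYMA02G05450 had the highest mean of the list, with 396 to 457 RPKM over both lines at 18 DAF and 2.58 to 5.51 at 55 DAF, and no call between the lines at any stage (adjusted p of 0.135 to 1.00).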

How the data were processed

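Whole-seed mRNA of 20 libraries (10 groups of 2 biological replicates) was sequenced. The authors deposited read counts per gene model, counted with HTSeq on annotated soybean gene models and on models assembled from the reads, and RPKM made by them from these counts; which aligner and strand setting they used is not given in the sources used here. RPKM as deposited equalled counts over model length and library total. The members and gene lists were chosen with earlier results of these data known.

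Counts were tested with edgeR 4.0.16 in R 4.3.3: filterByExpr on the 10 groups (40721 of 57274 models), TMM factors, robust quasi-likelihood fits of 10 group means, Benjamini-Hochberg adjustment over all models and a threshold of 0.05. P-values measure the spread between pools of field-grown seeds. The line effect across stages came from an additive model. Tested on simulated counts, the comparison at 55 DAF recovered 68 of 100 genes changed 2-fold and 86 of 100 changed 4-fold, and the interaction 33 and 84 of 100. The simulated lines differed in only these genes, drawn from those with more reads, and spread followed a trend over all genes. In the data 46.1% of genes tested were called at 55 DAF, so the shares recovered need not hold there. The alternatives were other scalings, filters, thresholds and fits, limma 3.58.1 (voom, and log2 of RPKM plus 1 or 0.1), DESeq2 1.42.0, a replicate block, and leaving out each library or the 55 DAF stage. Named genes are the 5 members, the 3 models most correlated with each, and the most abundant and most changed of the pathway list, beside the α-subunit and seed coat marker genes; its enzyme steps are unnamed, so 1 abundant gene stands for the list.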

Additional observations from a re-analysis of the deposited data

Results flagged for a closer look

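The line difference changed with stage in 4 of the 5 genes, by edgeR's test of the 4 interaction terms: CHI1A (adjusted p = 3.69e-05), IFS1 (0.00708), CHS7 (0.0210) and CHS8 (0.0462). The log2 fold change of CHI1A was -0.02 at 35 DAF, -1.63 at 50 DAF and -0.60 at 55 DAF. IFS1 was below DN47 in both libraries at 50 DAF and above it in both at 55 DAF. CHS8 kept its call in 3 of the 20 fits without 1 library. A share of 44.5% of all genes tested had such a change. With 2 libraries per group, single libraries could not be tested as outlying.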

How the results depend on the processing

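With 2 libraries per group and as few as 58 reads for CHS8 and 60 for IFS2 in single libraries, both the spread between replicates and counting error limit what can be called, and a difference that missed the threshold is not shown to be absent. Counts of called genes moved by more than 1.5 times as follows; the causes were not tested. At 50 DAF (2 called) DESeq2, limma-voom and a minimum of 10 counts in every library gave 4, and the fit of 4 libraries gave 0. Over all genes that fit of 50 DAF called 73, against 6695 in the main fit of 20 libraries. At 35 DAF (0) DESeq2, limma-voom and the fit of 4 libraries gave 1, as did the fit of 4 libraries at 25 DAF (0). Across stages (0) DESeq2, limma-voom and the fit without 55 DAF gave 1. From 25 to 35 DAF the RPKM values gave 3 (pseudocount 1) and 2 (pseudocount 0.1) in cgy-2-NIL (5), and the fit of 4 libraries gave 5 in DN47 (3). The interaction (4) gave 1 without 55 DAF, 2 at an adjusted p of 0.01, and 0, 0, 1 and 2 for single neighbouring stages in order. At 55 DAF (4) an adjusted p of 0.01 gave 2. A log2 fold change above 2 gave 0 at 50 and 0 at 55 DAF, and for neighbouring stages 1, 0, 2 and 0 in DN47 and 0, 0, 2 and 1 in cgy-2-NIL.

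Leaving out 1 library gave 0 to 1 called at 18, 25 and 35 DAF, 1 to 3 at 50 DAF, 2 to 5 at 55 DAF, 0 to 2 across stages and 2 to 4 in the interaction. It was 2 at 55 DAF without either cgy-2-NIL library or DN47 replicate 2 of that stage. Fitted differences that changed sign were uncalled under the alternative, and only CHI1A from 25 to 35 DAF in DN47 had been called at first: it was -0.12 with a pseudocount of 1 and -0.13 with 0.1 on RPKM. The line difference of CHI1A at 35 DAF (-0.02) was 0.0086 with upper-quartile factors, 0.025 with TMM without the 100 most abundant genes, 0.13 and 0.13 on RPKM and 0.0083 with a minimum of 10 counts. That of CHS7 was 0.021 and 0.025 on RPKM at 35 DAF and -0.029 by limma-voom at 25 DAF. From 18 to 25 DAF CHS7 was -0.081 and -0.084 on RPKM in DN47 and -0.049 and -0.051 in cgy-2-NIL. IFS1 from 50 to 55 DAF in DN47 was -0.0023 with upper-quartile factors, IFS2 across stages 0.0044 by DESeq2, and CHI1A from 35 to 50 DAF in cgy-2-NIL 0.0030 without 55 DAF. Without 1 library the ranges that crossed 0 were, at 18 DAF, -0.24 to 0.24 for CHS7, -0.081 to 0.31 for CHS8 and -0.83 to 1.41 for IFS2. At 25 DAF they were -0.51 to 0.46 for CHS7 and -0.42 to 1.06 for CHS8, and at 35 DAF -0.38 to 0.11 for CHS7 and -0.15 to 0.11 for CHI1A. In cgy-2-NIL they were -0.41 to 0.55 for CHS7 and -1.03 to 0.45 for CHS8 from 18 to 25 DAF and -0.28 to 0.21 for CHI1A from 35 to 50 DAF. Across stages IFS2 ran from -0.25 to 0.083.

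Replicate numbers were shared by the lines, and deviations of same-numbered libraries correlated at -0.17, 0.18, -0.06, -0.0039 and 0.09 from 18 to 55 DAF, so the numbers were not taken as pairs. With the replicate number as a block, 0, 0, 0, 2 and 4 of the 5 genes were called between the lines at the 5 stages, as without it. The interaction of CHS8 lost its call (adjusted p = 0.0665) and CHI1A passed from 18 to 25 DAF in cgy-2-NIL (0.0335).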
